A study of Mus musculus with 16 samples.

Results

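The 10 genes described here are Sox17, Cldn5, Pecam1, Cdh5, Tek, Flt1, Abcb1a, Slco1a4, Mfsd2a and Slc2a1, which mark brain endothelial cells or carry out blood-brain barrier functions. They were chosen by gene name, with earlier results of these data known. Each of the 10 was found among the 47593 genes of the count table. All 10 also passed the filter on low counts, as did 16553 genes in all. The measurements were made by bulk mRNA sequencing of the cerebral cortex of 5xFAD mice, a heterozygous transgenic model of amyloid deposition on a C57BL/6-SJL hybrid background whose transgenes are driven by the neuron-specific mouse Thy1 promoter. All 16 libraries came from 5xFAD mice, so no library without the transgenes was compared. Mice ate vehicle chow with the microencapsulation carrier, or chow with rapamycin at 14 ppm of active compound, from 2 months of age until tissue collection at 5 months. Each sex had 4 libraries on vehicle and 4 on rapamycin, which makes 4 groups. The labels put 11 libraries in batch 1 and 5 in batch 2, and each group had at least 1 library in batch 2.

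Brain endothelial cells line the cerebral vessels and form the blood-brain barrier. Tight junctions seal the gaps between neighbouring cells, vesicle traffic across the cells is held low, and dedicated transporters carry glucose and lipids inward while efflux pumps return drugs to the blood. Rapamycin inhibits mTOR complex 1, a kinase complex that adjusts growth and metabolism to nutrient supply. In bulk cortex, fewer endothelial cells and less RNA per endothelial cell cannot be told apart.

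The upstream sequences of both transporter genes that rose on rapamycin, Mfsd2a and Slc2a1, are shown beside that of Cldn5, a tight junction gene that did not pass the test. Of the 10 genes, 7 had a RefSeq promoter window (GRCm38.p6). Each sequence is the longest stretch of the 250 bases before the RefSeq start that no annotated exon covers, read 5' to 3' on the strand of the gene. Capitals mark matches on either strand to ACGTG, the core recognised by hypoxia-inducible factors, to CCAAT and to GGGCGG, and no match overlapped another.
Mfsd2a, chr4:122961195-122961308, minus strand: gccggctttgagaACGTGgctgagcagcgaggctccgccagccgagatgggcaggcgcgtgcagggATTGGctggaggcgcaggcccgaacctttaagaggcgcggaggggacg
Slc2a1, chr4:119108495-119108710, plus strand: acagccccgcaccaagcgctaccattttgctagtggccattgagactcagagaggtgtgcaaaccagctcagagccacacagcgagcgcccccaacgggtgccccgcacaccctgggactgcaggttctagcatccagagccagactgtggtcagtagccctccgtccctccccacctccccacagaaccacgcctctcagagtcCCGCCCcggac
Cldn5, chr16:18776597-18776846, plus strand: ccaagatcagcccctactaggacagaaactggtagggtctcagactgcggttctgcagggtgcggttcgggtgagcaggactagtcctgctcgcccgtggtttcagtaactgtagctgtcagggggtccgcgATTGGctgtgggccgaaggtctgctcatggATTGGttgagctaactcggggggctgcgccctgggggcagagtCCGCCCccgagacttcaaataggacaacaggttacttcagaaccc
Over the whole 250-base windows, ACGTG occurred 2 times before Mfsd2a and 1 time before Slc2a1, the latter outside the stretch shown. It occurred 0 times before Cldn5, Tek, Flt1, Abcb1a and Slco1a4. The Abcb1a window, chr5:8566841-8567090, precedes a RefSeq start far upstream of chr5:8660077, where the gene begins in the count table. Its matches therefore do not describe the bases next to the counted gene. Of the 32851 RefSeq windows, 16.6% held ACGTG. The letters CCAAT occurred 2 times before Cldn5, 2 times before Slco1a4 and 1 time before Mfsd2a, and it was held by 33.8% of all windows. GGGCGG occurred 3 times before Flt1, 2 times before Slc2a1 and 1 time before Cldn5, against 32.7% of all windows. Motifs of FOXO, ETS, SOX and TCF/LEF factors, a glucocorticoid receptor half-site and the TATA box were also counted in these windows. Mfsd2a held 1 TCF/LEF match and 0 of the others, and Slc2a1 held 0 of all of them. ACGTG was thus examined among several motifs, and enrichment was not tested. A match describes the letters and does not show binding.

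Depth was even, at 16393501 to 20593089 counted read pairs a library, and the 10 genes had 93 to 3314 read pairs each in a library. Levels are given as CPM, the count relative to the library total, scaled by edgeR's TMM factors. The library labelled male rapamycin 4 had 512 CPM of Xist and 0 read pairs on 4 Y-linked genes, whereas the other 7 male libraries had 0.0559 to 1.01 CPM of Xist and 104 to 133 CPM of the Y-linked genes. It was kept under its label, and values without it are given below. Cortex markers were abundant, with 7 neuronal genes summing to 5216 to 8542 CPM. Female rapamycin 1 and 2 and male rapamycin 2 stood apart from the other 13 libraries. Their mitochondrial share was 6.88 to 6.99% of read pairs, against 2.64 to 5.47% elsewhere. Their exon length slope, the slope of a library's log2 deviation from the mean against log2 exon length, was -0.127 to -0.121, against -0.0333 to 0.1005 elsewhere, so long transcripts were relatively less represented in them.

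With both sexes combined, Sox17, Mfsd2a and Slc2a1 rose on rapamycin and the other 7 genes did not pass the test. Mfsd2a was 1.63-fold higher, Slc2a1 1.40-fold and Sox17 1.35-fold. The test was edgeR's quasi-likelihood test with sex and batch as terms, and a gene was called at a Benjamini-Hochberg adjusted p under 0.05 over all 16553 genes. The 3 calls of 10 compare with 13.3% of all genes tested, and the 3 rises with 6.46% of genes called in that direction. None of the 10 fell, against 6.86% of all genes. The genes were chosen with earlier results of these data known, so these comparisons with all genes are not independent of the data. At an unadjusted p under 0.05 the same 3 genes passed, against 30.4% of all genes. Adding the 1.5-fold minimum that the study used for differentially expressed genes left Mfsd2a alone, against 2.26% of all genes. The median log2 fold change was 0.03 over the 10 genes and 0.02 over all genes. All 3 calls were lost when female rapamycin 1 and 2 and male rapamycin 2 were left out (log2 fold change 0.35 for Sox17, 0.45 for Mfsd2a and 0.29 for Slc2a1, adjusted p 0.372 to 0.413, edgeR), when 1 of those 3 libraries or female vehicle 3 was left out, when the batch term was dropped, or when either the mitochondrial share or that slope was a covariate.

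**Figure D1:**
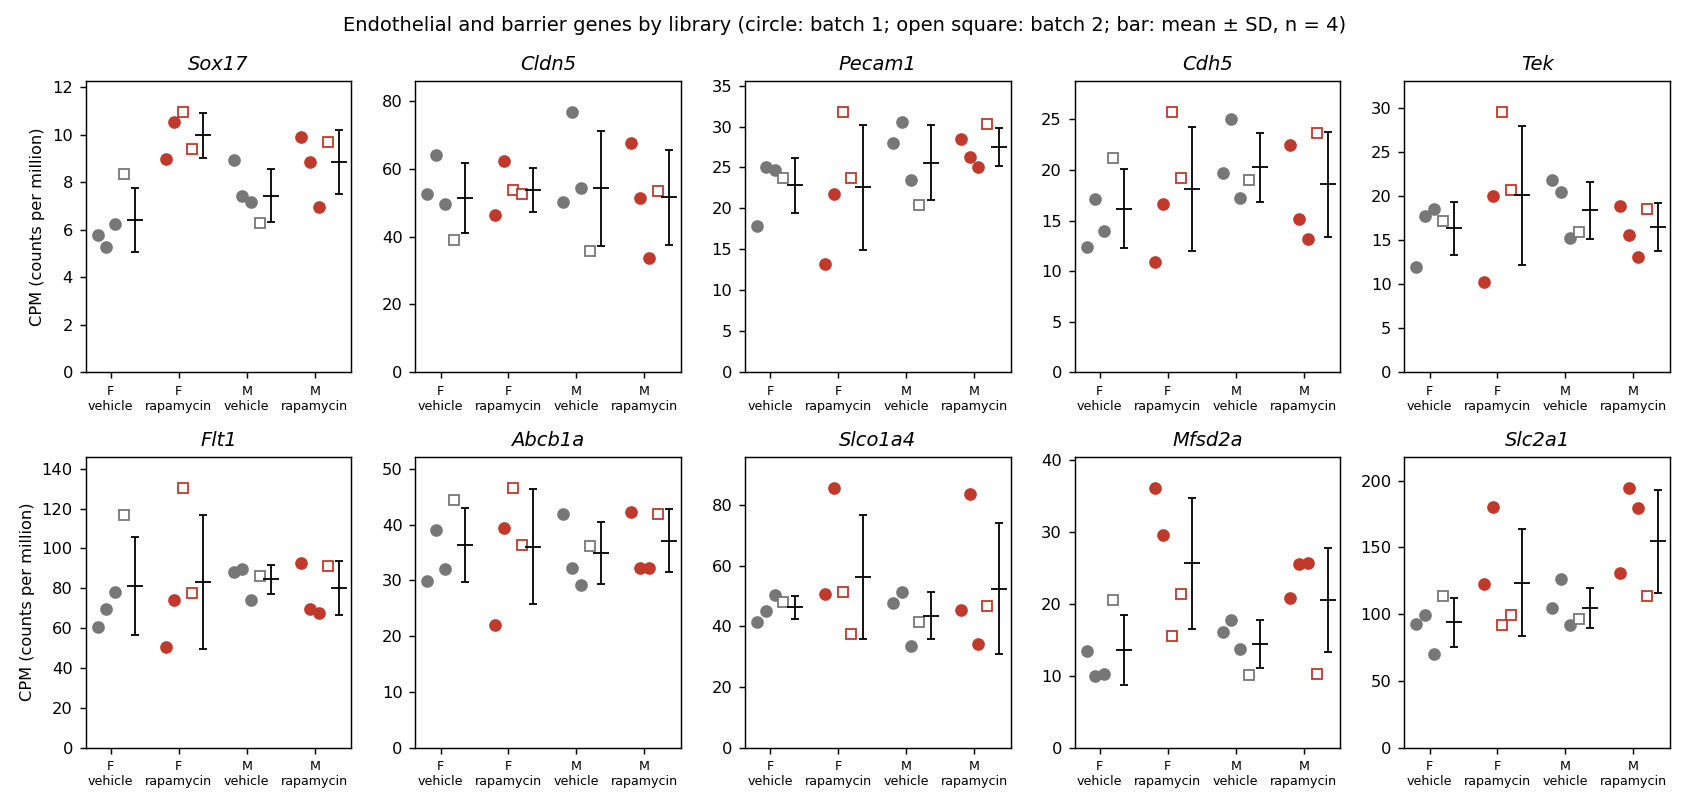
Level of each gene in CPM (y axis, from 0) in the 16 libraries by group (x axis, F female, M male), with batch 1 as circles, batch 2 as open squares, and the mean ± SD of 4 libraries as a bar. Above the highest vehicle library lie 6 of 8 rapamycin libraries for Sox17, 6 for Mfsd2a and 4 for Slc2a1, and 0 to 2 for the other genes.

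Sox17 (chr1:4490931-4497354, minus strand, GRCm38) encodes a transcription factor of endothelial and arterial identity. The 4 female vehicle libraries had 5.77, 5.26, 6.26 and 8.36 CPM, and the 4 female rapamycin libraries had 8.98, 10.5, 10.95 and 9.41 CPM. In males, vehicle libraries had 8.92, 7.41, 7.15 and 6.26 CPM, and rapamycin libraries had 9.90, 8.83, 6.94 and 9.68 CPM. All female rapamycin libraries lay above all female vehicle libraries, while the male groups overlapped. The same separation held for 2.13% of all genes tested. Across both sexes, 6 of 8 rapamycin libraries exceeded the highest vehicle library. The mean was 6.92 ± 1.27 CPM on vehicle and 9.41 ± 1.23 CPM on rapamycin (SD, n = 8 each), and the fitted log2 fold change was 0.43 with a standard error of 0.13 and an adjusted p of 0.0332 (edgeR). The 95% interval of the fold ran from 1.11 to 1.62. Within batches, the log2 difference was 0.41 in batch 1 and 0.46 in batch 2. With a replicate block the adjusted p of Sox17 was 0.0677. In GENCODE M21 the gene Gm37587 overlaps 16.8% of the exon bases of Sox17. Read pairs assigned to several genes were left out of the counts, so read pairs on the shared bases may be missing from both genes.

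Mfsd2a (chr4:122946850-122961188, minus strand) encodes the transporter that brings docosahexaenoic acid into the brain as a lysolipid and holds down vesicle traffic across brain endothelium. Female vehicle libraries had 13.5, 9.95, 10.3 and 20.6 CPM, and female rapamycin libraries had 36.1, 29.5, 15.5 and 21.3 CPM. Male vehicle libraries had 16.1, 17.7, 13.7 and 10.1 CPM, and male rapamycin libraries had 20.8, 25.5, 25.6 and 10.2 CPM. Both lowest rapamycin values, 15.5 and 10.2 CPM, were from batch 2, and the second of them was from the library labelled male rapamycin 4. The mean went from 13.97 ± 3.904 to 23.1 ± 8.05 CPM (SD, n = 8 each), with 6 of 8 rapamycin libraries above the highest vehicle library. The fitted log2 fold change was 0.71, with a standard error of 0.20 and an adjusted p of 0.0298 (edgeR), and the 95% interval of the fold was 1.21 to 2.21. The log2 difference was 1.03 within batch 1 and 0.06 within batch 2. With a replicate block, the adjusted p of Mfsd2a was 0.0682.

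Slc2a1 (chr4:119108711-119137983, plus strand) encodes GLUT1, the glucose transporter of brain endothelium, which astrocytes also carry. Female vehicle libraries had 92.4, 99.4, 69.9 and 114 CPM, and female rapamycin libraries had 122, 180, 92.3 and 99.3 CPM. Male vehicle libraries had 105, 126, 91.7 and 96.1 CPM, and male rapamycin libraries had 131, 195, 180 and 114 CPM. The highest values were those of female rapamycin 2 and male rapamycin 2 and 3, and each sex had overlapping diet groups, with 4 of 8 rapamycin libraries above the highest vehicle library. The mean was 99.3 ± 16.6 CPM on vehicle and 139 ± 39.9 CPM on rapamycin (SD, n = 8 each). Its log2 fold change was 0.49, with a standard error of 0.14 and an adjusted p of 0.0295 (edgeR), and the 95% interval of the fold was 1.14 to 1.72. In batch 1 the log2 difference was 0.73, and in batch 2 it was -0.05. An annotated gene, Gm12868, overlaps 2.99% of its exon bases.

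Slco1a4 (chr6:141805440-141856199, minus strand) encodes an organic anion transporter of the barrier, and belongs to a family of similar neighbouring genes, so that read pairs matching several of them were not counted. The female vehicle libraries had 41.6, 45.1, 50.3 and 48.1 CPM, and the female rapamycin libraries 50.6, 85.7, 51.3 and 37.6 CPM. The male vehicle libraries had 47.7, 51.3, 33.7 and 41.4 CPM, and the male rapamycin libraries 45.4, 83.7, 34.1 and 46.7 CPM. Female rapamycin 2 and male rapamycin 2 stood above the other 14 libraries, which ran from 33.7 to 51.3 CPM. The log2 fold change was 0.29 with a standard error of 0.17 and an adjusted p of 0.248 (edgeR). Without female rapamycin 1 and 2 and male rapamycin 2 it was -0.08, with an adjusted p of 0.825 (edgeR). Abcb1a (chr5:8660077-8748575, plus strand), which encodes the efflux pump P-glycoprotein, had 35.6 ± 5.75 CPM on vehicle and 36.6 ± 7.73 CPM on rapamycin (SD, n = 8 each). Its log2 fold change was -0.00 with a 95% interval of the fold from 0.832 to 1.20, so a change of 1.5-fold lay outside the interval. Abcb1b is a close copy of Abcb1a, and reads that matched both were not counted. Gm42686 overlaps 10.1% of the exon bases of Abcb1a.

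Cldn5 (chr16:18776847-18778260, plus strand) encodes claudin-5, the main tight junction claudin of brain vessels. Its levels overlapped between diets, with a mean of 52.8 ± 13.1 CPM on vehicle and 52.7 ± 10.1 CPM on rapamycin (SD, n = 8 each). No rapamycin library exceeded the highest vehicle library. The log2 fold change was 0.05 with a standard error of 0.15 and an adjusted p of 0.857 (edgeR), and the 95% interval of the fold was 0.8292 to 1.29.

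The receptors and adhesion molecules that mark endothelium in general also did not pass the test. Pecam1 (chr11:106654217-106750628, minus strand), an adhesion molecule at endothelial contacts, was at 24.2 ± 3.98 CPM on vehicle and 25.1 ± 5.85 CPM on rapamycin (SD, n = 8 each). Cdh5 (chr8:104101625-104144502, plus strand), the endothelial cadherin of adherens junctions, was at 18.2 ± 4.02 and 18.4 ± 5.28 CPM. Tek (chr4:94739289-94874976, plus strand), the angiopoietin receptor TIE2, was at 17.4 ± 3.10 and 18.3 ± 5.81 CPM. Flt1 (chr5:147561604-147726011, minus strand), a receptor for vascular endothelial growth factors, was at 82.8 ± 16.9 and 81.7 ± 23.8 CPM. The 4 log2 fold changes ran from -0.09 for Flt1 to 0.02 for Tek, with adjusted p from 0.682 to 0.962 (edgeR). The 95% intervals of the fold spanned 0.818 to 1.25 for Pecam1, 0.771 to 1.19 for Cdh5, 0.783 to 1.31 for Tek and 0.776 to 1.14 for Flt1. For all 4 genes female rapamycin 1 was the lowest of the 16 libraries, at 13.2, 10.9, 10.2 and 50.7 CPM, and female rapamycin 4 was the highest, at 31.7, 25.7, 29.5 and 130 CPM. The lowest and the highest library of these genes were thus both in the same diet and sex, but in different batches. Female rapamycin 1 was in batch 1 with an exon length slope of -0.121, and female rapamycin 4 was in batch 2 with 0.0640.

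Analysed by sex, none of the 10 genes was called in either sex, against 0.0121% of all genes in females and 0% in males. In females the log2 fold change was 0.61 ± 0.17 for Sox17, 0.92 ± 0.28 for Mfsd2a and 0.42 ± 0.20 for Slc2a1 (± standard error, adjusted p 0.0726, 0.0830 and 0.215, edgeR). In males it was 0.24 ± 0.17, 0.49 ± 0.28 and 0.55 ± 0.20 (adjusted p 0.561, 0.476 and 0.363). At an unadjusted p under 0.05, 3 of the 10 genes passed in females, against 23.1% of all genes, and 1 passed in males, against 12% of all genes. DESeq2 called 2 of the 10 in females, Sox17 and Mfsd2a, against 9.08% of all genes. The test of the difference between the sexes called 0 of the 10 genes and 0% of all genes, with adjusted p of 0.999 for each of the 10 (edgeR), and 0 of the 10 had an unadjusted p under 0.05, against 2.17% of all genes. The interaction log2 fold change, females minus males, was 0.37 ± 0.24 for Sox17, 0.43 ± 0.40 for Mfsd2a and ranged down to -0.18 for Abcb1a. With the library labelled male rapamycin 4 left out, it was 0.40 ± 0.26 for Sox17 and 0.23 ± 0.38 for Mfsd2a. Without the library labelled male rapamycin 4, the male log2 fold changes were 0.22 for Sox17, 0.69 for Mfsd2a and 0.64 for Slc2a1. Still 0 of the 10 genes and 0 of all genes were called in males. With both sexes and without that library, all 3 calls were kept, at 0.44 for Sox17, 0.82 for Mfsd2a and 0.52 for Slc2a1, against 9.44% of all genes called. Between the vehicle groups, female minus male log2 fold changes ran from -0.36 for Cdh5 to 0.09 for Slco1a4 and 0 of the 10 genes were called, against 0.0121% of all genes. At an unadjusted p under 0.05, 0 of the 10 passed, against 3.55% of all genes. Of all genes, 0 were called higher in vehicle females although the highest log2 fold change was 10.83, so a missing call here says little. The spread in that fit was estimated over all groups, and 6 genes were called without the library labelled male rapamycin 4.

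**Figure D2:**
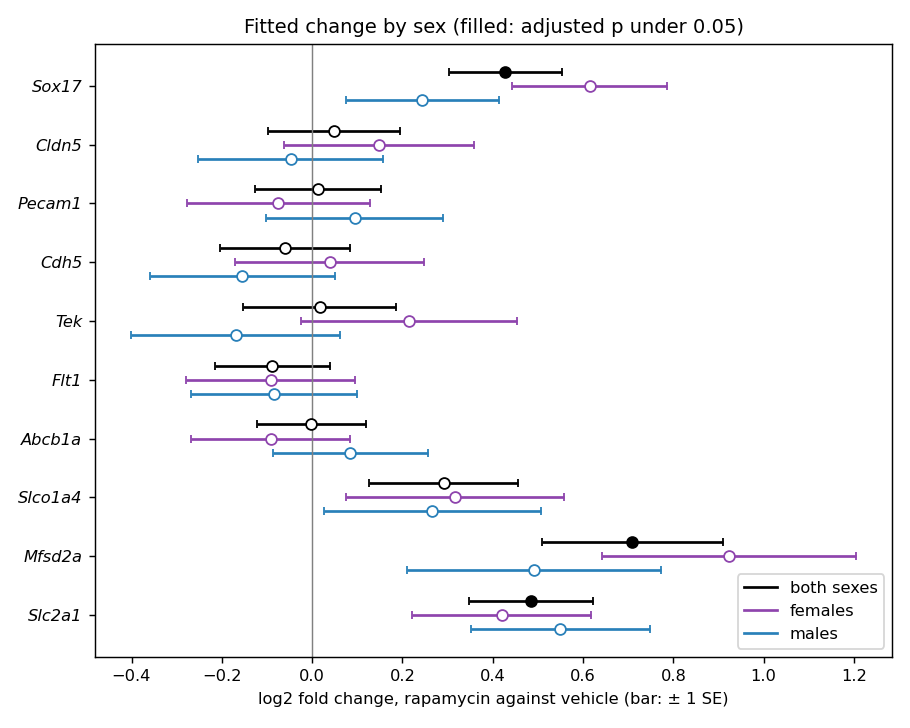
Fitted log2 fold change of rapamycin against vehicle (x axis) with bars of ± 1 standard error for each gene (y axis) in both sexes, females and males. Filled points are calls at an adjusted p under 0.05, which are Sox17, Mfsd2a and Slc2a1 with both sexes combined.

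The diet differences were uneven between the batches. Batch 1 held 6 vehicle and 5 rapamycin libraries, and batch 2 held 2 and 3. Female rapamycin 1 and 2 and male rapamycin 2, the 3 libraries that stood apart in exon length slope and mitochondrial share, were all in batch 1 and made up 3 of its 5 rapamycin libraries. Sox17 was higher on rapamycin by a similar amount in each. Mfsd2a, Slc2a1 and Slco1a4 were higher on rapamycin in batch 1, by 1.03, 0.73 and 0.34 on the log2 scale, and differed by 0.06, -0.05 and 0.01 in batch 2. Cldn5, Pecam1, Cdh5 and Tek had the opposite pattern, with -0.17, -0.15, -0.17 and -0.19 in batch 1 and 0.51, 0.37, 0.17 and 0.44 in batch 2. A batch by treatment term, added after these differences were seen, gave a log2 difference of 1.01 ± 0.38 for Mfsd2a, 0.75 ± 0.25 for Slc2a1 and -0.66 ± 0.28 for Cldn5 (batch 1 minus batch 2, ± standard error). These 3 genes had an unadjusted p under 0.05 (0.0158, 0.00786 and 0.0329, edgeR), as did 5.17% of all genes. Each had an adjusted p of 0.914, and 0 of the 10 genes were called, against 0.0242% of all genes. Batch 1 alone gave a log2 fold change of 1.03 for Mfsd2a and 0.71 for Slc2a1, both called (adjusted p 0.0343 and 0.0344, edgeR), and 0.41 for Sox17, which was not (adjusted p 0.105). In batch 1 alone 7.45% of all genes were called. Between batches themselves, Flt1 and Cdh5 were higher in batch 2, with log2 fold changes of 0.48 (adjusted p 0.0127) and 0.45 (adjusted p 0.0328, edgeR). These 2 calls compare with 35.5% of all genes called between batches.

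**Figure D3:**
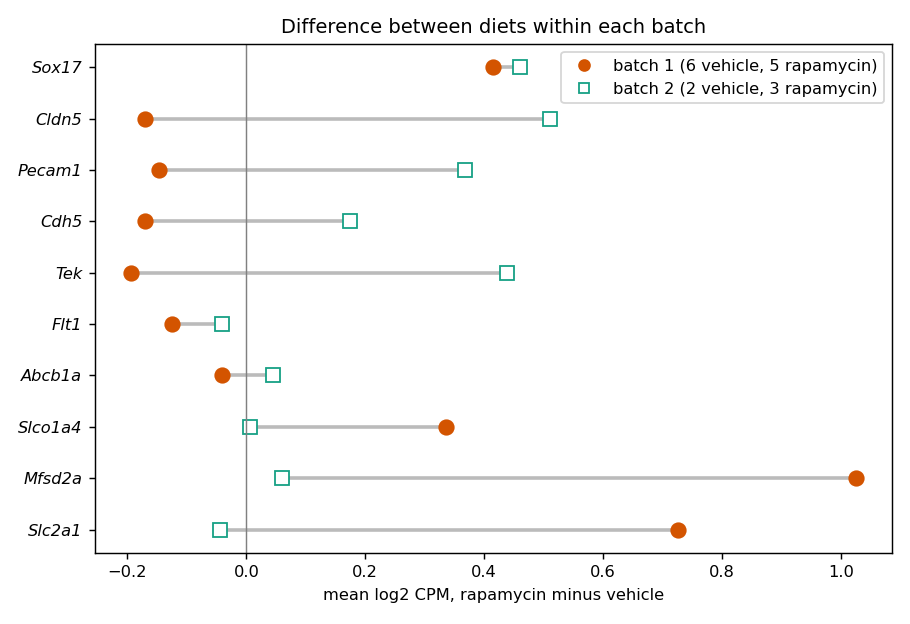
Mean log2 CPM of rapamycin minus vehicle libraries (x axis) for each gene (y axis) within batch 1 (circles) and batch 2 (open squares). The 5 rapamycin libraries of batch 1 include the 3 that stood apart. Sox17 lies at 0.41 and 0.46, whereas Mfsd2a lies at 1.03 in batch 1 and 0.06 in batch 2.

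Levels of the genes that rose were also set against the exon length slope of each library. By group, the slope ran from 0.000395 to 0.0944 in female vehicle, -0.127 to 0.0640 in female rapamycin, 0.0170 to 0.1005 in male vehicle and -0.122 to 0.0119 in male rapamycin libraries. Mfsd2a was at 25.5 to 36.1 CPM and Slc2a1 at 122 to 195 CPM in the 3 libraries with the lowest slopes. Sox17 was at 8.83 to 10.5 CPM in them, against 6.94 to 10.95 CPM in the other rapamycin libraries. Its highest level, 10.95 CPM, was that of female rapamycin 4, at a slope of 0.0640. Male rapamycin 1 had a slope of -0.0107, below every vehicle library, and male rapamycin 3 had 0.0119. These libraries had 20.8 and 25.6 CPM of Mfsd2a and 131 and 180 CPM of Slc2a1, above the highest vehicle libraries at 20.6 and 126 CPM. The other 3 rapamycin libraries, female 4 and 5 and the one labelled male rapamycin 4, had 15.5, 21.3 and 10.2 CPM of Mfsd2a and 92.3, 99.3 and 114 CPM of Slc2a1. All 3 of these Slc2a1 values, and 2 of the 3 Mfsd2a values, were below the highest vehicle library. With the slope as a covariate the log2 fold change was 0.35 for Sox17, 0.45 for Mfsd2a and 0.25 for Slc2a1 (adjusted p 0.903, 0.932 and 0.954, edgeR), and no gene of the 16553 was called. With the mitochondrial share as a covariate it was 0.25, 0.63 and 0.41 (adjusted p 0.712, 0.625 and 0.629), and again no gene was called. The standard errors with the slope were 0.19, 0.30 and 0.20, against 0.13, 0.20 and 0.14 without it.

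**Figure D4:**
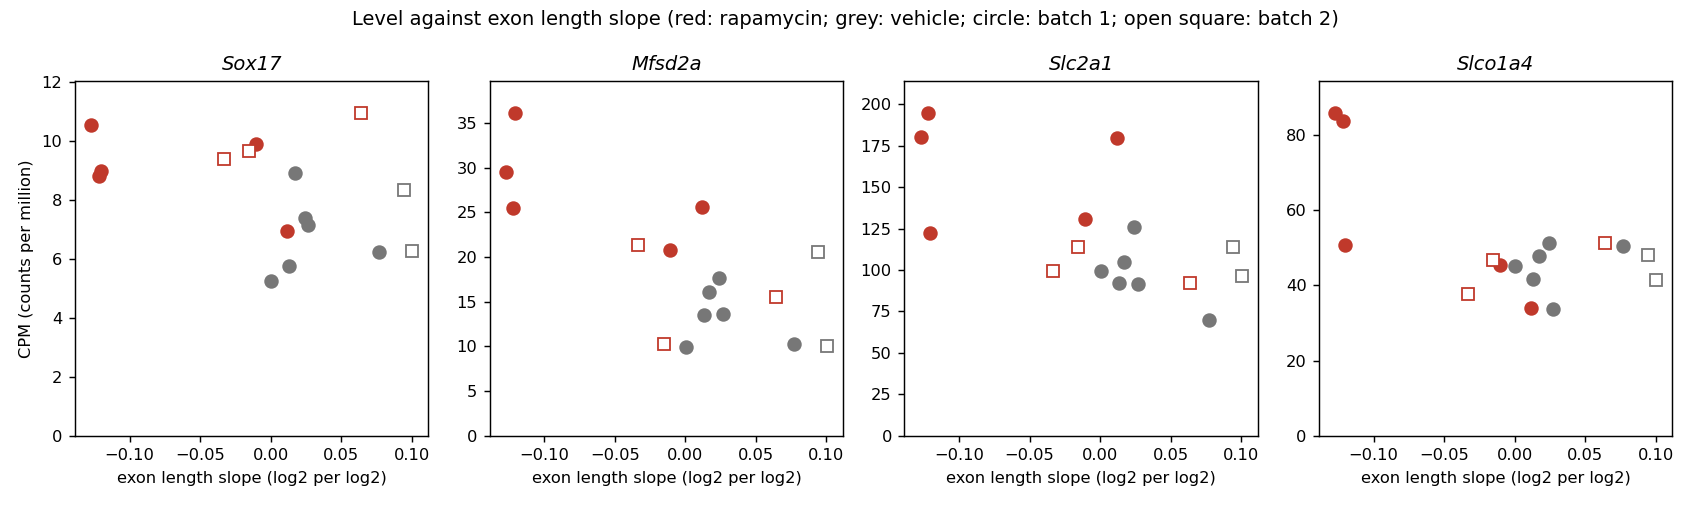
CPM (y axis, from 0) of Sox17, Mfsd2a, Slc2a1 and Slco1a4 against the exon length slope of each library (x axis), rapamycin in red and vehicle in grey, batch 2 as open squares. The 3 libraries at slopes of -0.127 to -0.121 are all on rapamycin, and Slco1a4 is highest in 2 of them.

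Per kilobase of exon, Cldn5 and Slc2a1 were the most abundant of the 10 genes, at 37.3 ± 8.002 and 34.0 ± 10.3 RPKM (SD over 16 libraries). Cldn5 exceeded Slc2a1 in 10 of 16 libraries, so their order was not stable, while Slc2a1 exceeded the next gene, Mfsd2a, in all 16. Mfsd2a at 8.23, Slco1a4 at 7.74, Abcb1a at 6.59 and Flt1 at 6.09 RPKM formed a middle group whose neighbours lay within 1 SD of each other. Cdh5 at 4.59, Pecam1 at 3.95 and Tek at 3.78 RPKM followed, and Sox17 was lowest at 1.71 ± 0.37 RPKM and below Tek in all 16 libraries. RPKM was computed here from the counts and the exon lengths of the count table.

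Across the 16 libraries the 10 genes did not vary as a single block. After the mean of each batch was removed from log2 CPM, Pecam1, Cdh5, Tek, Flt1 and Abcb1a correlated with each other at Pearson's r from 0.68 to 0.82. Mfsd2a correlated with Slc2a1 at 0.70 and with Sox17 at 0.67, and with the 5 genes of that block at -0.29 to -0.17. Cldn5 was closest to Cdh5, at 0.69. These values are descriptive, over 16 libraries that also differ in diet, depth, mitochondrial share and exon length slope. With the mean of 22 other endothelial genes, r was highest for Cdh5 at 0.71 and lowest for Mfsd2a at 0.33. When that mean was a covariate of the diet test, all 3 calls were kept, at log2 fold changes of 0.37 for Sox17, 0.68 for Mfsd2a and 0.43 for Slc2a1 (adjusted p 0.0439, 0.0359 and 0.0358, edgeR), against 12.3% of all genes called. Outside all gene lists, the 5 genes whose pattern was most like the mean of the 10 were Adgre5 at r = 0.90, Vwa1 at 0.85, Rab31 at 0.83, Gm15954 at 0.81 and Ctdsp1 at 0.805. The genes most like Slc2a1 alone, picked after their values were seen, were Ddit4 at 0.95, Tsc22d3 at 0.93 and Nfkbia at 0.92.

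**Figure D5:**
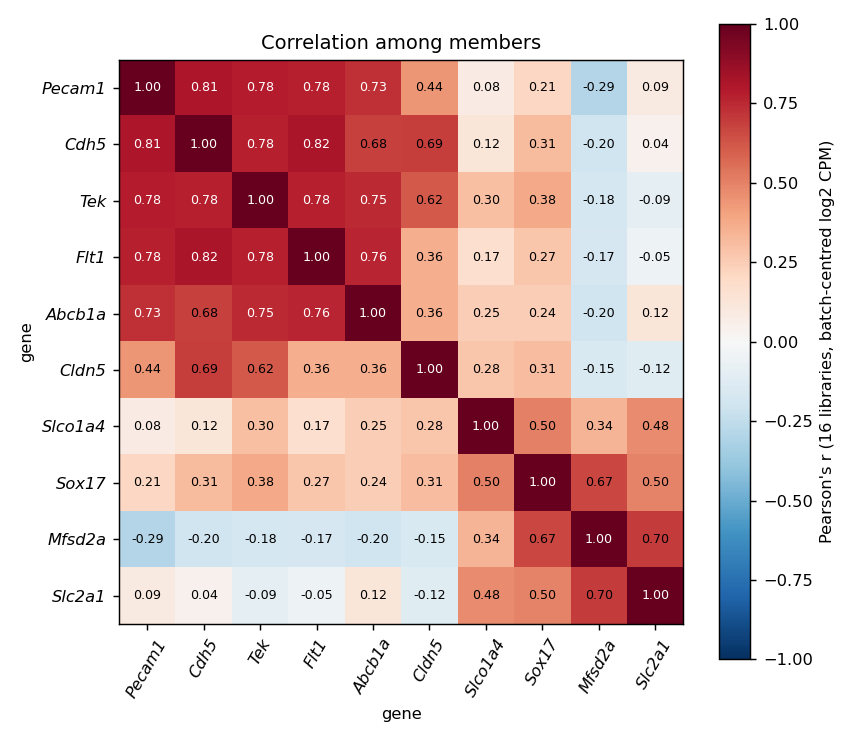
Pearson's r between the 10 genes (both axes) over 16 libraries, from log2 CPM with the batch means removed. Pecam1, Cdh5, Tek, Flt1 and Abcb1a form a block at 0.68 to 0.82, and Mfsd2a is closest to Slc2a1 at 0.70.

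Other genes of the vessel wall are given by list, for both sexes combined, where 6.46% of all genes rose and 6.86% fell. No gene of any list was called with the slope or the mitochondrial share as a covariate, and 1 of all genes tested was called without female rapamycin 1 and 2 and male rapamycin 2. Of 22 further endothelial genes, 2 rose and 0 fell, with a median log2 fold change of 0.10. These were Ly6c1, a surface protein of capillary endothelium, at 0.59 (adjusted p 0.0250), and Egfl7, a secreted endothelial factor, at 0.30 (adjusted p 0.0295, edgeR), while Ly6a was at 0.46 (adjusted p 0.0663). Of 14 junction genes, 0 rose and 0 fell, and Tjp1, the scaffold ZO-1 of tight junctions, was at -0.32 (adjusted p 0.0561). The other junction genes with the smallest p were Cgnl1 at -0.37 and Jam3 at 0.16.

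Of 19 other barrier transporters and receptors, 0 rose and 3 fell, against 6.86% of all genes that fell, with a median of -0.10. The 3 were Slc7a1, a cationic amino acid transporter, at -0.42 (adjusted p 0.00879), Lrp1, a lipoprotein receptor that clears amyloid-beta, at -0.48 (adjusted p 0.0300), and Insr, the insulin receptor, at -0.26 (adjusted p 0.0486, edgeR). Neurons and glia express all 3 as well. Of 16 genes of the Wnt and norrin pathway, which maintains the barrier, 0 were called, and Lrp6, Ndp and Apcdd1 were at -0.22, 0.21 and -0.15. In the VEGF and angiopoietin list, 14 of 15 genes were tested, with 1 rise and 1 fall. Vegfb, a ligand of FLT1, was at 0.38 (adjusted p 0.0119), and Kdr, the main VEGF receptor of endothelium, was at -0.49 (adjusted p 0.0376, edgeR). Ramp2, a partner of the adrenomedullin receptor, was at 0.45 (adjusted p 0.0590).

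Of 12 activation and transcytosis genes, 10 were in the count table under these names, 7 were tested and 0 were called. Sele, Selp, Cavin1, Cavin2 and Lcn2 were not tested. Plvap, which forms diaphragms of leaky vessels, was at 0.40 (adjusted p 0.0885), and Ackr1 and Angptl4 were at 0.41 and 0.44. Among 11 arterial and venous genes, 0 rose and 1 fell, which was Efnb2, an arterial ephrin ligand, at -0.35 (adjusted p 0.0133, edgeR), while Hey1 and Gkn3 were at 0.19 and -0.28. None of 12 pericyte genes was called, and Atp13a5, Notch3 and Higd1b were at 0.25, -0.25 and 0.34.

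Markers of other cell types were checked in the same fit. None of 6 smooth muscle, 9 fibroblast, 5 blood, 6 microglia, 7 neuron and 6 oligodendrocyte genes was called, and of 8 astrocyte genes 1 rose, the connexin gene Gjb6 at 0.47 (adjusted p 0.0119, edgeR). The median log2 fold change of the 8 astrocyte genes was 0.26, with 6 of them positive. That median was 0.03 for the 10 members and 0.02 for all genes tested. The astrocyte genes summed to 3464 to 5534 CPM on vehicle and 3331 to 6220 CPM on rapamycin. Of 10 choroid plexus genes, 5 fell, which were Kcnj13, Aqp1, Slc4a5, Cldn2 and Sostdc1 at -2.25 to -1.52, and the median of the list was -1.73. Gjb6 and these 5 genes are named after their values were seen. The summed level of the 10 choroid plexus genes ran from 15.99 to 1989 CPM on vehicle, with male vehicle 4 highest, and from 25.8 to 195 CPM on rapamycin. With that library and the one labelled male rapamycin 4 both left out, Mfsd2a was called at 0.79 (adjusted p 0.0374), whereas Sox17 at 0.39 and Slc2a1 at 0.52 were not (adjusted p 0.0786 and 0.0518, edgeR), against 6.22% of all genes called. The part of the choroid plexus and astrocyte markers in the 3 calls was not tested.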

How the data were processed

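Cortical RNA was enriched for mRNA and sequenced as 150-base read pairs. Per the labels and the study's methods, the authors trimmed the first 10 bases of each read with Trimmomatic 0.39, aligned to GRCm38/mm10 with HISAT2 2.2.1 and counted read pairs per gene name with featureCounts 2.0.3. The submitters' processing notes also list FastQC 0.11.9, Trim Galore and GRCm38.p4. The deposited values are raw counts. Per the file headers, read pairs were counted over exons without strand, and multi-mapping or multiply assigned pairs were left out. The group files held a second copy, in which 0 of 761488 cells differed. The study's text describes pooling of mice, and the labels do not say how many mice a library holds, so p-values measure the spread between these libraries.

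Counts were tested with edgeR 4.0.16 in R 4.3.3 (TMM scaling, filterByExpr minimum count 10, quasi-likelihood test with Benjamini-Hochberg adjustment over 16553 genes). Sex and batch were terms for both sexes combined, and 4 groups plus batch for the other contrasts. Standard errors came from the F statistic, and 95% intervals used 12 residual degrees of freedom. Correlations used log2 CPM with a prior count of 2. Alternatives were DESeq2 1.42.0, relative log expression size factors, no filter, a replicate block, no batch term, batch 1 alone, covariates and 16 leave-one-out fits. Leaving out MC4 and MR4, leaving out FR1, FR2 and MR2, and the batch by treatment term were chosen after seeing the data. The scripts were tested on simulated data. The members and gene lists were chosen with earlier results of these data known. Named genes were all 10 members, the 3 tested genes of smallest unadjusted p in each vascular list, and the 5 unlisted genes most correlated with the mean of the members. Exons and overlaps came from GENCODE M21 (GRCm38), promoters from RefSeq.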

Additional observations from a re-analysis of the deposited data

How the results depend on the processing

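Libraries are written with F or M for the sex, C or R for vehicle or rapamycin, and their number. Of the 10 genes, 3 were called with both sexes combined. DESeq2, relative log expression factors, no filter and the pan-endothelial covariate each called 3 and batch 1 alone called 2. The count was 1 with a replicate block, 1 without MC4 and MR4, and 0 with no batch term, with the mitochondrial share or the slope over exon length as a covariate, or without FR1, FR2 and MR2. Leaving out 1 library gave 0 to 3, with 0 without FC3, FR1, FR2 or MR2 and 1 without FC1, FC2 or MC4. Sox17 was called in 9, Mfsd2a in 8 and Slc2a1 in 11 of these 16 fits. Their positive sign held in all 27 alternatives, and their adjusted p ran up to 0.903, 0.932 and 0.954.

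In females the count was 0, but 2 with DESeq2, 2 with no filter, 3 in batch 1 alone, and 0 to 2 when 1 library was left out, with 2 without FC4 or FR4. In males it was 0, but 1 with no filter (Slc2a1). Between batches it was 2, but 0 with either of those covariates, 0 without FR1, FR2 and MR2, 1 with the pan-endothelial covariate, and 1 to 2 when 1 library was left out. For batch by treatment it was 0, but 2 with no filter (Mfsd2a and Slc2a1). The sex interaction and the vehicle comparison stayed at 0 in every alternative run.

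Over all genes, the 2205 calls of both sexes became 3131 with DESeq2, 1298 with a replicate block, 142 with no batch term and 1240 in batch 1 alone. They became 1040 without MC4 and MR4, 1 without FR1, FR2 and MR2, and 0 with the slope or the mitochondrial share as a covariate. The leave-one-out fits gave 719 (without FR1) to 3352 (without FR4). The 2 calls in females became 1503 with DESeq2, 1678 with no filter and 1290 in batch 1 alone, and 1 to 2104 leaving out 1 library. The 0 calls in males became 27 with DESeq2 and 526 with no filter. The sex interaction had 0 calls, or 87 with no filter, and the vehicle comparison 2, or 9 with DESeq2, 144 with no filter and 0 with a replicate block. The 5884 between batches became 2083 with the slope and 1703 with the mitochondrial share, and the 4 of batch by treatment became 145 with no filter.

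Replicate numbers were checked for pairing. Same-numbered libraries of different groups correlated in their deviations at r from -0.51 to 0.40 over 21 pairs, with 6 pairs over 0.1. No values for differently numbered libraries are given beside them, so this check cannot decide whether the numbers pair the libraries. The members had 93 to 3314 read pairs a library, fewest for Sox17, and how much of the spread is counting error was not tested.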
